A study of Glycine max with 8 samples.

Results

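MIPS4 and GOLS encode the enzymes that open the routes to inositol and to the raffinose sugars, and their transcripts were followed through early soybean (Glycine max) seed development. Members were the probe sets to which the platform's probe-to-gene table gives the symbol MIPS4 or GOLS. There were 2 of them, 1 for each gene, among 37641 soybean probe sets on the array. Both passed the filter on dim signals, as did 33625 soybean probe sets in all. MIPS4 has the NCBI gene ID 100819908 and GOLS the ID 548050.

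Inositol is made from glucose 6-phosphate by inositol phosphate synthase, the product of the MIPS genes, and this is the known entry to newly made inositol in plants. From inositol, a chain of kinases builds phytate, the phosphate store of seeds. Galactinol synthase, the product of GOLS genes, joins inositol to galactose from UDP-galactose, and galactinol then donates galactose to sucrose to make raffinose and stachyose, sugars that collect in legume seeds as they mature. Soybean has several genes for each enzyme. RefSeq lists MIPS1 as another name of the gene called MIPS here, the form known from developing soybean seeds.

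Transcript levels were measured on 8 Affymetrix arrays of cultivar Tamahomare (spelled Tamahoamare in labels of the last 2 stages), with 2 arrays for each of 4 stages. The stages were pods at the start of elongation, pods together with their beans when the bean was 2 mm long, beans 5 mm long, and green beans at full size. The plants carried no stated treatment or transgene, and ages in days were not given in the sources used here. By the labels, the first 2 stages held pod tissue and the last 2 held beans alone. In such whole tissues, fewer cells that express a gene and less RNA per cell cannot be told apart. Whether replicates came from separate plants is not stated, so p-values reflect only how far these samples lie apart, a spread that may be technical.

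Stage markers were read first. Of an embryo list of 10 genes, 8 were measured, the regulators LEC1-A and WRI1B, storage proteins and a sucrose-binding protein, and 1 of them was above background on each pod elongation array, 4 and 3 at the 2 mm stage, 5 and 6 at the 5 mm stage and 8 on both fully grown arrays. The summed signal of 5 green-tissue genes was 2175 to 5019 on the 6 arrays of the later stages, against 10779 and 10784 in elongating pods. The sum of 3 seed coat genes was 6232 to 9080 on those 6 arrays, against 1140 and 957 in elongating pods, but its members went opposite ways. In full-size beans SCB1 was at 433 and 801, against 4765 and 5151 at the 5 mm stage, and ANR1 was above background on 0 of 2 arrays, at 10.7 and 2.19, against 2132 and 2018 at the 5 mm stage. HPS stood at 7285 and 6954 in full-size beans, against 1370 and 1910 at the 5 mm stage, and was at 7.06 and 5.15 at the 2 mm stage. The correlation of replicate arrays over probe sets, which are no independent replicates, was 0.969 to 0.991. The 3' over 5' signal ratio of an actin control differed between stages. It was 2.05 and 2.09 in elongating pods, 3.64 and 3.6 at the 2 mm stage and 2.07 and 2.22 at the 5 mm stage. In full-size beans it was 2.73 and 4.8. Another actin control ran in another order, from 27.2 to 66.9 and lowest in full-size beans. The part of these ratios in the changes below was not tested. Arrays were not on a common scale as deposited, with medians of 24.1 to 138, and hybridization controls lay at 462 and 462 in elongating pods, 838 and 839 at the 2 mm stage, 475 and 482 at the 5 mm stage and 987 and 1032 in full-size beans. MAS5 is named as the summary program of the last 2 stages alone. Between successive stages, stage and control level cannot be told apart. In any comparison of the first 2 stages with the last 2, neither can stage and the named program.

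All signals below were scaled so that the arrays had an equal median, and are unitless. MIPS4 was bright in the samples that held pods and fell in the beans. Its scaled signal was 1699 and 1473 in elongating pods, 1256 and 1190 at the 2 mm stage, 154 and 181 at the 5 mm stage, and 55.1 and 105 in full-size beans. The ranges of successive stages did not overlap, and each stage lay lower than the stage before it. The widest spread between replicates was in full-size beans, where the pair differed by 0.77 on the log2 scale. All 8 arrays were above background, which was set on each array as the 95th percentile of the probe sets of 2 soybean pathogens on the same array. The dimmest was fully grown replicate 1, at 3.45 times that percentile.

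GOLS followed a different course. Its scaled signal was 141 and 187 in elongating pods, 4.49 and 6.22 at the 2 mm stage, 5.40 and 5.53 at the 5 mm stage, and 27.0 and 27.4 in full-size beans. The 4 arrays of the 2 mm stage and the 5 mm stage were all below the background percentile, at 0.80 to 0.99 times it. The fully grown arrays were above it, at 1.69 and 1.47 times, and the pod elongation arrays at 23.7 and 30.4 times. The GOLS transcript was therefore bright in elongating pods, not above background at the 2 mm and 5 mm stages, and near background in full-size beans. Over the 8 arrays the log2 values of the 2 members correlated at r = 0.40, a description that rests on 4 stages.

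**Figure D1:**
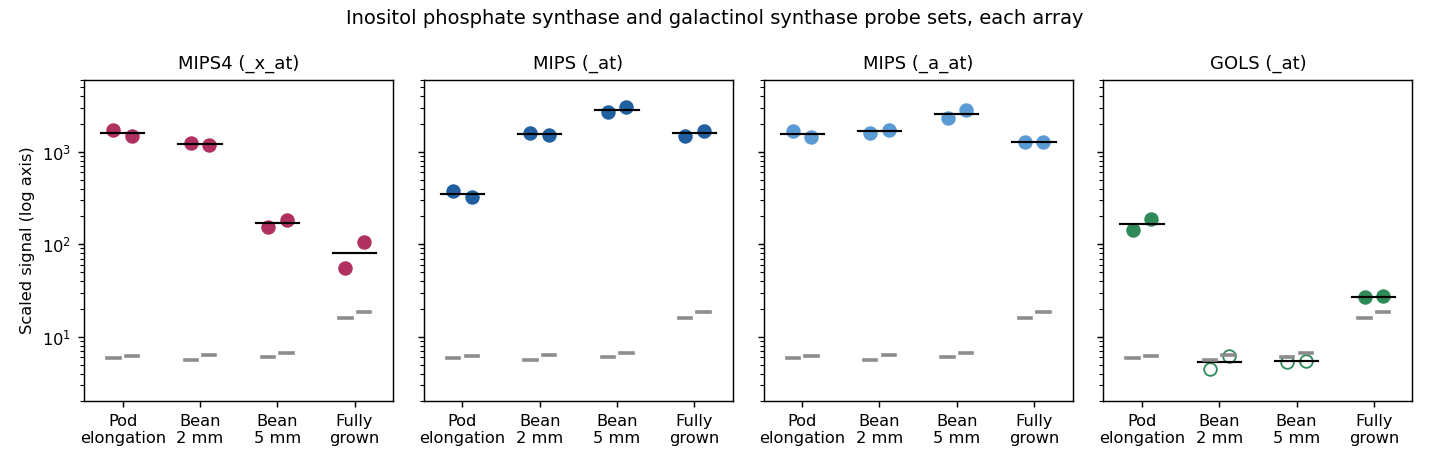
Scaled signal (log axis) of the MIPS4 probe set, the MIPS probe sets _at and _a_at, and the GOLS probe set on each array, by stage; points are arrays, black lines stage means (n = 2) and grey bars each array's background percentile, with open points at or below it. MIPS4 averaged 80.1 in full-size beans, against 1586 in elongating pods, while GOLS was above background on the pod elongation and fully grown arrays alone.

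The first step compared the 2 mm stage with pod elongation. Differences were tested on log2(scaled signal + 16) with limma over all 33625 tested probe sets, with Benjamini-Hochberg adjustment and a threshold of 0.05. The added 16 shrinks the folds of dim transcripts. GOLS fell: it averaged 5.36 ± 1.22 at the 2 mm stage, against 164 ± 32.1 in elongating pods (SD, n = 2 each). Set against the background percentile in place of the dim signal, it was at least 27.3-fold lower, and the fitted log2 change was -3.06 (95% confidence interval -3.44 to -2.69, limma adjusted p = 2.2e-06). The change kept its direction and its call under all 16 alternatives that were run. Its size was set largely by the added constant, since GOLS was below background at the 2 mm stage, and ran from -4.70 with 1 added to -1.71 with 64 added. In the same samples the sum of the 5 measured green-tissue genes, all above background on every array, was 2175 and 4187 at the 2 mm stage, against 10779 and 10784 in elongating pods. Their part in the fall of GOLS was not tested.

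MIPS4 averaged 1223 ± 46.5 at the 2 mm stage, against 1586 ± 160 in elongating pods (SD, n = 2 each), a log2 change of -0.37 (95% confidence interval -0.87 to 0.13) that did not pass the test (limma adjusted p = 0.203). The replicates did not overlap. For the values as deposited the difference was 0.39, likewise not called. It was called at -0.37 without fully grown replicate 1 (limma adjusted p = 0.0189) or replicate 2 (0.0191), and when only the 4 arrays of the 2 stages were fitted (0.0192). Thus 1 of the 2 members was called in this step, as lower, against 46.9% of all tested probe sets, 26.5% higher and 20.4% lower.

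The second step compared the 5 mm stage with the 2 mm stage, and here MIPS4 fell. It averaged 168 ± 18.6 at the 5 mm stage, against 1223 ± 46.5 at the 2 mm stage (SD, n = 2 each), 6.76-fold lower. The log2 change was -2.76 (95% confidence interval -3.26 to -2.26, limma adjusted p = 0.000284) and was the fall of rank 7 among 33625. It kept its direction and call under all 16 alternatives, between -3.71 and -2.48. GOLS was not well above background at either stage, so no fold is given (limma adjusted p = 0.979). In this step 18.8% of tested probe sets were called, 9.29% higher and 9.49% lower. By the labels, pods were no longer part of the sample from this step on. The sum of the 5 green-tissue genes was 4245 and 5019 at the 5 mm stage, against 2175 and 4187 at the 2 mm stage. CAB3 carried most of it, at 3225 and 3719 at the 5 mm stage, against 1365 and 2004 at the 2 mm stage, while RCABETA was at 95.4 and 97.5 at the 5 mm stage, against 127 and 159 at the 2 mm stage. The part of the sampled tissue in the fall of MIPS4 was not tested.

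The third step compared full-size beans with the 5 mm stage. MIPS4 averaged 80.1 ± 35.2 in full-size beans, against 168 ± 18.6 at the 5 mm stage (SD, n = 2 each), and fell by 0.98 on the log2 scale (95% confidence interval -1.48 to -0.48, limma adjusted p = 0.00526). The size of this fall rested on single arrays: it was -0.61 without fully grown replicate 1 and -1.39 without replicate 2, with the call kept. With scaling to the hybridization controls it was -2.75, and for the values as deposited -1.94. In this step 52.1% of tested probe sets were called, 31.6% higher and 20.5% lower.

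GOLS averaged 27.2 ± 0.247 in full-size beans, against 5.47 ± 0.0948 at the 5 mm stage (SD, n = 2 each). No least fold is given, since the fully grown arrays were themselves only 1.69 and 1.47 times their own background percentile. The log2 change was 1.01 (95% confidence interval 0.64 to 1.38, limma adjusted p = 0.000942). This rise depended on the scaling of the arrays. For the values as deposited, 12.7 and 10.6 in full-size beans against 5.56 and 5.59 at the 5 mm stage, the change was 0.36 and not called (limma adjusted p = 0.118). With scaling to the hybridization controls it was -0.01 (limma adjusted p = 0.981). The background percentile itself stood at 15.985 and 18.574 on the scaled fully grown arrays, against 5.97 and 6.68 at the 5 mm stage, so it moved the same way as the GOLS signal. The summed embryo genes moved with it too, at 86279 and 96528 in full-size beans, against 872 and 1794 at the 5 mm stage. Storage and sucrose-binding protein genes carried the sum in full-size beans. The regulator LEC1-A went the other way, at 190 and 206 in full-size beans, against 688 and 737 at the 5 mm stage. WRI1B overlapped, at 108 and 150 in full-size beans, against 145 and 181 at the 5 mm stage. The part of the embryo genes in the change was not tested. The call for GOLS in this step was thus kept under 2 of the 4 scalings.

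**Figure D2:**
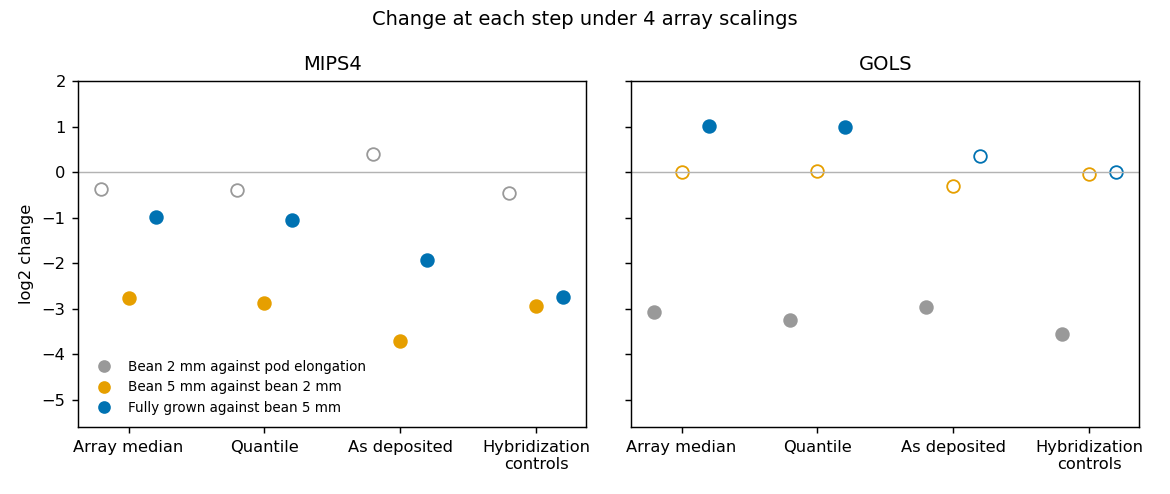
Change on the log2 scale of MIPS4 and GOLS at each of the 3 steps (colours) under 4 ways of scaling the arrays (horizontal axis); filled points passed the adjusted p threshold of 0.05 and open points did not. The fall of MIPS4 from the second step on and the fall of GOLS in the first step were called under all 4 scalings, while the GOLS change in the last step was 1.01, 0.99, 0.36 and -0.01.

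Wider spans gave the order of the levels. In full-size beans MIPS4 was 17.2-fold lower than in elongating pods (log2 change -4.11, standard error 0.22, limma adjusted p = 8.11e-07), and 13.4-fold lower than at the 2 mm stage (-3.74, limma adjusted p = 2.15e-06). At the 5 mm stage it was 8.73-fold lower than in elongating pods (-3.13, limma adjusted p = 8.99e-06). The order of MIPS4 was thus pod elongation, the 2 mm stage, the 5 mm stage and fully grown, with the first pair of neighbours not separated by the test. The shares of all tested probe sets called in these spans were 62.2%, 54.9% and 40.0%.

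For GOLS, full-size beans stood 4.13-fold below pod elongation with 16 added (log2 change -2.05, limma adjusted p = 8.12e-06), a fall called under all 16 alternatives, between -3.60 and -1.31. The 5 mm stage was at least 25.7-fold below pod elongation (log2 change -3.05, limma adjusted p = 1.85e-06). That fold was taken without the added constant, so these folds cannot be compared. With array medians equal, full-size beans stood above the 2 mm stage (log2 change 1.02, limma adjusted p = 0.000778). The change was 0.06 in the deposited values and -0.04 with hybridization-control scaling, neither called. The order of GOLS was therefore pod elongation first, and the order of the other 3 stages depended on the scaling.

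The probe set of MIPS4 has a near relative on the array. The gene MIPS (ID 547604) has 2 probe sets, called _at and _a_at here after the ends of their names, and the main number in their names is that of the MIPS4 set, whose name ends in _x_at. The ending _x_at marks a set in which some probes also match other transcripts, and _a_at a set whose probes match several transcripts of a gene. Its signal therefore need not come from MIPS4 alone, and values of the gene family are uncertain for this reason.

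The MIPS _at set took another course than MIPS4. Its scaled signal was 374 and 324 in elongating pods, 1598 and 1509 at the 2 mm stage, 2689 and 3017 at the 5 mm stage, and 1485 and 1671 in full-size beans. It was lowest in elongating pods and highest at the 5 mm stage, with no overlap of either stage with its neighbours. It rose 4.31-fold at the 2 mm stage over pod elongation (log2 change 2.11, standard error 0.13, limma adjusted p = 3.97e-06) and 1.83-fold at the 5 mm stage over the 2 mm stage (0.87, limma adjusted p = 0.00331), although the change at the 5 mm stage was -0.08 as deposited. In full-size beans it fell 1.80-fold against the 5 mm stage (-0.85, limma adjusted p = 0.000571). The size of this fall ran from -3.15 to -0.765 on the log2 scale over the 16 alternatives.

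The MIPS _a_at set gave another picture in pods. Its scaled signal was 1657 and 1459 in elongating pods, 1586 and 1733 at the 2 mm stage, 2287 and 2805 at the 5 mm stage, and 1268 and 1275 in full-size beans. At the 2 mm stage against pod elongation its log2 change was 0.09 and did not pass the test (limma adjusted p = 0.616), where the _at set of the same gene rose by 2.11. The sets of MIPS thus disagreed in the first step. In the second step the _a_at set was 1.52-fold higher (limma adjusted p = 0.0176), a call lost without 2 mm replicate 1 (log2 change 0.54) or replicate 2 (0.67) or 5 mm replicate 2 (0.46) and turned to -0.34 as deposited. In the third it fell 1.98-fold (limma adjusted p = 0.00035), with log2 changes from -3.27 to -0.84 over the 16 alternatives.

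Ratios between these sets within an array do not depend on any factor by which the whole array was multiplied, and were set side by side for that reason. Their absolute size says nothing, since probe sets differ in affinity, but a shift between stages shows unequal change of the signals. A different summary program could still move them. Between the 2 mm and the 5 mm stage, such a shift and the named program cannot be told apart. The log2 ratio of MIPS4 to MIPS _at, from the deposited signals, was 2.18 and 2.18 in elongating pods, -0.35 and -0.34 at the 2 mm stage, -4.12 and -4.06 at the 5 mm stage, and -4.75 and -3.99 in full-size beans. Its shift was -2.53 at the 2 mm stage against pod elongation and -3.75 at the 5 mm stage against the 2 mm stage, each far beyond the replicate spread of at most 0.04 (SD, n = 2). In full-size beans its shift against the 5 mm stage was -0.28, within an SD of 0.54, and the arrays overlapped. In the last step the fall of MIPS4 thus differed from that of MIPS by less than the spread between replicates. With 2 arrays against 2, an exact permutation test cannot go below p = 0.333, so these shifts carry no p.

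The ratio of MIPS4 to MIPS _a_at was 0.04 and 0.01 in elongating pods, -0.34 and -0.54 at the 2 mm stage, -3.89 and -3.96 at the 5 mm stage, and -4.52 and -3.60 in full-size beans. Here too the larger shift, -3.48, lay between the 5 mm stage and the 2 mm stage. In full-size beans its shift against the 5 mm stage was -0.14, within an SD of 0.65, and the arrays overlapped, so in this step MIPS4 and both MIPS sets fell by amounts that these arrays do not separate.

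**Figure D3:**
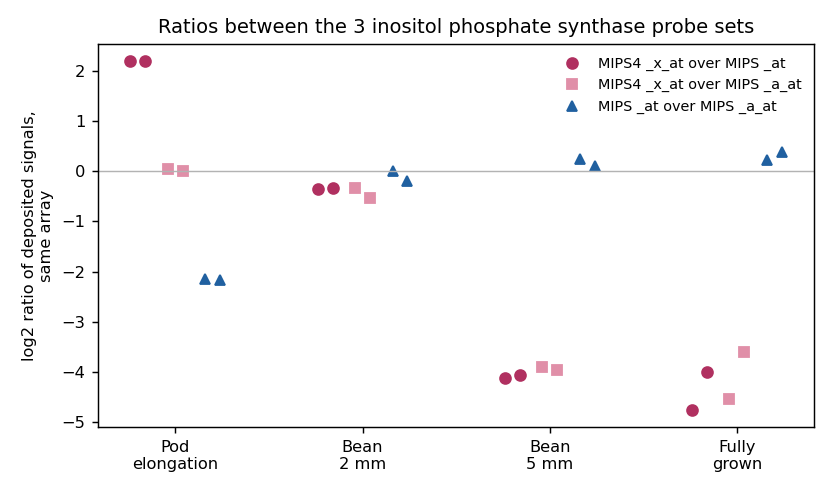
Log2 ratio of deposited signals between pairs of inositol phosphate synthase probe sets on the same array (vertical axis) at each stage; each point is an array, and only shifts between stages can be read. The ratio of MIPS4 to MIPS _at was -4.12 and -4.06 on the 5 mm arrays, against 2.18 on both pod elongation arrays.

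Other parts of the pathway were read from 8 other genes found by symbol: MIPS, the inositol phosphate kinases IPK1, IPK2 and ITPK1 to ITPK4, and the sucrose synthase SS, which supplies UDP-glucose. No inositol monophosphatase, raffinose synthase or stachyose synthase was among them, so the steps after galactinol were not read. The brightest probe set stood for each gene. At the 2 mm stage against pod elongation 2 of the 8 rose and 1 fell, where 26.5% of all tested probe sets were called higher and 20.4% lower. At the 5 mm stage against the 2 mm stage 2 rose and 0 fell, where 9.29% were higher and 9.49% lower. In full-size beans against the 5 mm stage 1 rose and 3 fell, where 31.6% were higher and 20.5% lower. With 8 genes, nothing particular to the list is read from these counts. For the list of 10 with MIPS4 and GOLS the median log2 changes of the 3 steps were 0.11, 0.13 and -0.06, against 0.08, -0.05 and 0.14 over all tested probe sets. These counts moved with the scaling: for the values as deposited the 8 genes gave 6 higher and 0 lower, 0 higher and 5 lower, and 1 higher and 7 lower, and with scaling to the hybridization controls 3 and 2, 1 and 0, and 0 and 7. Single arrays moved them as well: 0 of the 8 rose in the second step without 2 mm replicate 1 or 2 or 5 mm replicate 2, 0 fell in the first step without either pod elongation array or 2 mm replicate 1, and 3 rose in the last without fully grown replicate 2.

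Among the kinases, IPK2, an inositol polyphosphate kinase that acts early on the way to phytate, changed most in the first step. It stood at 118 and 144 at the 2 mm stage, against 27.1 and 33.5 in elongating pods, 3.17-fold higher (limma adjusted p = 8.13e-05). With array medians equal, its later levels, 128 and 127 at the 5 mm stage and 107 and 145 in full-size beans, overlapped those of the 2 mm stage. Its deposited values fell instead, from 260 and 255 at the 2 mm stage to 132 and 128 at the 5 mm stage. In full-size beans they were 50.2 and 55.8. For these values alone the second step was called, at -0.905 (limma adjusted p = 0.000392). The outcome of the last step changed for them too, and under hybridization-control scaling. Its lowest log2 change over the 16 alternatives was -1.95. The rise in the first step was called under all 16 alternatives, between 1.05 and 2.42 on the log2 scale.

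IPK1, which adds the last phosphate of phytate, moved late. It stood at 123 and 122 in full-size beans, against 15.1 and 28.2 at the 5 mm stage, 3.73-fold higher (limma adjusted p = 4.73e-05), but at 0.14 on the log2 scale and not called with scaling to the hybridization controls. With array medians equal, its levels in elongating pods, 27.5 and 26.5, and at the 2 mm stage, 16.9 and 13.7, were lower than in full-size beans. These wider spans were not run for IPK1 under the other scalings.

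ITPK4, a kinase of the inositol trisphosphate family, rose 1.57-fold at the 2 mm stage against pod elongation (limma adjusted p = 0.00305), at 77.9 and 71.9, against 41.1 and 42.6 in elongating pods. At 95.8 and 93.6 in the 5 mm stage and 129 and 117 in full-size beans its levels lay higher still, but neither later step was called, and the last step was at -0.72 as deposited and at -1.57 when scaled by hybridization controls. ITPK1 fell in the last step, to 39.8 and 74.4 in full-size beans, against 123 and 111 at the 5 mm stage (log2 change -0.90, limma adjusted p = 0.00801), a call lost without 5 mm replicate 1 (-0.83, limma adjusted p = 0.055). ITPK2 was called in none of the 3 steps.

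ITPK3 was the kinase whose course most resembled MIPS4. Its brightest set stood at 773 and 885 in elongating pods, 349 and 403 at the 2 mm stage, 419 and 182 at the 5 mm stage, and 130 and 110 in full-size beans. It fell in the first step (log2 change -1.11, limma adjusted p = 0.0149) and in the last (-1.11, limma adjusted p = 0.0134). Omission of pod elongation replicate 1 (-1.20), of its replicate 2 (-1.01) or of replicate 1 of the 2 mm stage (-1.01) each ended the call of the first fall, as did the deposited scale (-0.37). Of the 5 probe sets of ITPK3, 3 fell in the first step and the other 2, at 0.17 and 0.40, did not pass. In the second step, that of the largest fall of MIPS4 among the 3, 2 sets fell, at -0.76 (limma adjusted p = 0.00551) and -0.91 (0.0286), and the brightest did not pass, at -0.42 (0.366). Both calls of the second step were lost without 2 mm replicate 2 (-0.71 and -0.68) or 5 mm replicate 2 (-0.67 and -0.63). In the last step the 3 sets that fell in the first step fell again, and the other 2, at -0.25 and -0.22, did not pass. Over the 8 arrays the log2 values of ITPK3 and MIPS4 correlated at r = 0.84, against 0.55 for ITPK3 and GOLS.

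Sucrose synthase SS was bright throughout, with its brightest set at 2056 and 2152 in elongating pods, 2149 and 2491 at the 2 mm stage, 2914 and 3485 at the 5 mm stage and 2870 and 3120 in full-size beans. That set was 1.38-fold higher at the 5 mm stage than at the 2 mm stage with a limma adjusted p of 0.0479, a call lost under 10 of 16 alternatives, among them the omission of any single array of the first 3 stages (0.33 to 0.59 on the log2 scale), and turned to -0.49 as deposited. Another set of the gene rose more clearly in this step, to 956 and 1140 at the 5 mm stage, against 244 and 181 at the 2 mm stage (4.69-fold, limma adjusted p = 0.000209), and was called under all 16 alternatives. The remaining set averaged 1987 at the 5 mm stage, against 919 at the 2 mm stage (2.14-fold, limma adjusted p = 0.00154), a call lost only as deposited. With array medians equal the 3 sets thus agreed in direction in the second step, and not in size. In the last step the brightest set was not called (log2 change -0.09, limma adjusted p = 0.609). The other sets fell, at -0.88 (limma adjusted p = 0.00212) and -0.58 (0.00603). Deposited values of the brightest set fell as well, from 2999 and 3518 at the 5 mm stage to 1347 and 1205 in full-size beans.

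**Figure D4:**
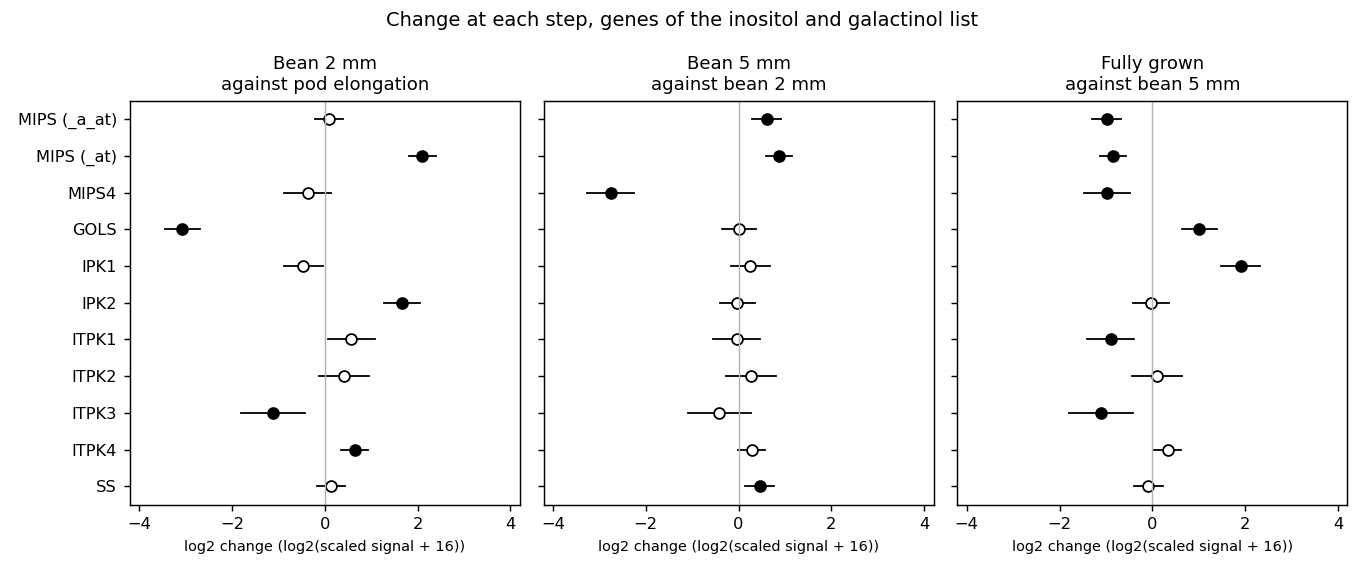
Log2 change at each of the 3 steps (panels, later stage over earlier) for the 10 genes of the list, with the brightest probe set of each and a second set for MIPS; points are fitted changes, bars 95% confidence intervals, and filled points passed the adjusted p threshold of 0.05. GOLS at -3.06 in the first step and MIPS4 at -2.76 in the second are the points farthest below 0.

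The genes whose course was most like that of each member were taken from 950 genes with a symbol, by Pearson correlation of log2 values over the 8 arrays. The points share stage and array, so the values describe likeness alone. For MIPS4 they were HDL57 (r = 0.98), PAP25 (0.97), AOS2 (0.97), ELIP (0.96) and SPK-4 (0.96). HDL57 is named as a homeodomain-leucine zipper protein, PAP25 as a purple acid phosphatase, AOS2 an allene oxide synthase of the jasmonate route, ELIP an early light-induced protein and SPK-4 a protein kinase. AOS2, for example, stood at 276 and 275 in elongating pods, 175 and 196 at the 2 mm stage, 97.8 and 107 at the 5 mm stage and 61.5 and 81.4 in full-size beans, a smaller span than that of MIPS4. Among all tested probe sets, 147 (0.437%) reached a correlation of 0.95 with MIPS4.

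For GOLS the most alike were EN2 (r = 0.99), NAC4 (0.99), PSK5 (0.99), CYP82A2 (0.99) and SWEET28 (0.99). NAC4 is a transcription factor of the NAC family, PSK5 a phytosulfokine precursor, CYP82A2 a cytochrome P450 and SWEET28 a sugar transporter by family. EN2 stood at 824 and 829 in elongating pods, 12.7 and 13.3 at the 2 mm stage, 12.7 and 21.5 at the 5 mm stage and 105 and 92.1 in full-size beans, above background on all 8 arrays. PSK5 and CYP82A2 were not above background on any of the 4 arrays of the 2 mm stage and the 5 mm stage, as was the case for GOLS. In full-size beans CYP82A2, at 13.4 and 13.9, and SWEET28, at 13.8 and 18.5, were not above background on either array. PSK5 was above it on fully grown replicate 1 and not on replicate 2. For these genes a late rise like that of GOLS was thus not clear of background. NAC4 was above background in full-size beans, at 46.3 and 46.5, as was EN2. Among all tested probe sets, 631 (1.88%) reached a correlation of 0.95 with GOLS.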

How the data were processed

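RNA from 8 samples, 2 for each of 4 stages, was hybridised to Affymetrix soybean arrays as biotin-labelled cRNA, per the labels' protocols. The authors deposited a linear signal intensity for each probe set on each array. MAS5 is named for 4 samples, per the submitters' processing notes; the program of the other 4, its version and any scaling target were not given in the sources used here. Each array was scaled to an equal median over the tested soybean probe sets, those above the 95th percentile of the 15864 Phytophthora sojae and 7530 Heterodera glycines probe sets on at least 2 arrays. Log2(scaled signal + 16) was fitted to all 8 arrays with limma 3.58.1 in R 4.3.3 (lmFit, eBayes with trend), two-sided, with Benjamini-Hochberg adjustment over 33625 probe sets. The fit was also run on simulated independent normal values, with shifts added to brighter probe sets alone. That run did not test recovery in dim probe sets, the array scaling or effects shared by an array. No depth applies to array signals, and the number of arrays limits the precision.

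Symbols came from the platform table, updated through RefSeq (Glycine_max_v4.0), which matched 8652 of 8677 probe sets with 1 gene. Named genes were both members, the pathway and marker lists and the 5 genes most correlated with each member. A fold written as "at least" sets the brighter stage's geometric mean against the higher of background percentile and signal in the dim stage. Members and lists were chosen with earlier results of these data known, as was the scaling. Same-numbered replicates deviated together with correlations of -0.0481 to 0.102, so they were not taken as pairs. Alternatives covered scaling, the added constant, the filter, the replicate block, the arrays fitted and the omission of each array. Sequences were not used here.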

Additional observations from a re-analysis of the deposited data

How the results depend on the processing

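Over all tested probe sets, the number called moved by more than 1.5 times in these cases. As deposited it was 24420 for the 2 mm stage against pod elongation (15755 with array medians equal), 24480 for the 5 mm stage against the 2 mm stage (6316) and, in full-size beans, 29594 on comparison with the 2 mm stage (18473). With scaling to the hybridization controls it was 28999 for fully grown against the 5 mm stage (17512) and 29861 for fully grown against the 2 mm stage. With only the 4 arrays compared it was 9727 for the 5 mm stage against the 2 mm stage. Without single arrays it lay between 1283 and 11433 for that comparison and between 8252 and 17498 for the 5 mm stage against pod elongation (13445). Higher probe sets made up 56.5%, 49.5% and 60.6% of the calls in the 3 steps, against 83.8%, 3% and 8.18% as deposited and 2.12% in the last with the hybridization controls. With the replicate block the counts for the 3 steps were 15428, 5738 and 17183, and no call of a member or pathway probe set changed.

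For MIPS4 and GOLS, 91 values under alternatives that omitted no single array, and 94 under those that did, kept their call and, where called, their direction, and 7 did not. The exceptions were MIPS4 at the 2 mm stage against pod elongation, called at -0.37 with only the 4 arrays compared and without either fully grown array (range -0.47 to -0.27 over omitted arrays), and GOLS in full-size beans. Against the 5 mm stage GOLS was at 0.36 as deposited and -0.005 with the hybridization controls, and against the 2 mm stage at 0.061 and -0.038, none called. Other pathway values turned sign. As deposited, the 5 mm stage against the 2 mm stage gave -0.34 and -0.081 for the _a_at and _at sets of MIPS, -0.55 for ITPK4, -0.49 for SS and -0.78 for a second set of ITPK1. Fully grown against the 5 mm stage gave -0.77 for ITPK2 and -0.72 for ITPK4 as deposited, and -1.47 and -1.57 with the hybridization controls, with -0.91 for a second set of ITPK2. The cause was not tested. Signal over background limits GOLS in beans and MIPS4 in full-size beans.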
